A study of Mus musculus with 1 sample.

Results

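The cells described here are the 100 cells with the lowest expression of 7 genes that mark alveolar macrophage (AM) identity in a sort of AMs, out of 1809 cells with at least 1000 detected genes and 2055 cells in all. They were selected on a score. For each of Chil3, Ear2, Mrc1, Abcg1, Marco, Ltc4s and Fabp5, the natural log value of a cell was turned into a z score across the 1809 cells, and the mean of the 7 z scores gave the score of the cell. The remaining 1709 cells served as the comparison, and the scoring genes were left out of it. The question asked of the data was which other genes are high where these 7 are low: genes of the cell cycle, of antigen presentation, or of another cell lineage.

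The cells came from 1 single-cell RNA-seq library (10x Genomics 3′ chemistry) of the lung of 1 adult mouse, labelled as wild-type, 8 to 12 weeks old and of a strain crossed back from FVB/NJ to C57BL/6 for 10 generations. The series' design text gives this mouse as the Csf1rCre-negative control with both Hdac3 alleles floxed, whereas the study names Cd11cCre as the driver of the deletion arm. In either case the control carries the floxed alleles without Cre. Cells were sorted as CD45+CD11c+SiglecF+ and 5000 were loaded. The mice with Cre-driven loss of HDAC3 were not analysed here. With 1 library there is no replicate and no test between animals, and every interval below is a 95% interval that covers counting error alone.

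AMs are the macrophages of the airspaces, where they take up inhaled particles and recycle surfactant lipid. They arise around birth under GM-CSF, which induces the nuclear receptor PPARγ, and in the adult they are kept up largely by local division. The scoring genes cover several of their tasks. Chil3 encodes a secreted chitinase-like lectin, Ear2 a ribonuclease of the eosinophil-associated family, Mrc1 the mannose receptor and Marco a scavenger receptor. Abcg1 encodes a cholesterol exporter, Ltc4s the synthase of leukotriene C4, and Fabp5 a fatty acid carrier.

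In the mouse genome build GRCm38 (mm10), Chil3 lies at chr3:106147554-106167564 on the minus strand, Ear2 at chr14:44102654-44103534 on the plus strand, Mrc1 at chr2:14229392-14332057 on the plus strand and Abcg1 at chr17:31057675-31117988 on the plus strand. Marco lies at chr1:120474538-120505024 on the minus strand, Ltc4s at chr11:50236461-50238616 on the minus strand and Fabp5 at chr3:10012548-10016607 on the plus strand. Near the 3′ ends of the transcripts of these 7 genes, where this chemistry reads, 0% of 98-base stretches occurred in a transcript of another gene, so reads of Ear2 can be told from those of its paralogs. Of Ear1, which is described below, 23.4% of such stretches occurred in Ear10 or in a pseudogene of the family.

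Scores of the 1809 cells ran from -2.21 to 1.13 with a median of 0.04. The distribution was a single peak with a tail of low scores, and the limit of 100 cells fell inside the peak's lower flank. The last cell inside scored -0.727 and the first cell outside -0.725, so the cells on either side of the limit were alike. The tail was long: the 4 lowest cells scored between -2.21 and -1.76, the next -1.60, and the cell of rank 10 scored -1.29. The lowest cells were also shallower than the rest, with 1793 to 6667 UMIs (median 2748) against 1680 to 8603 (median 3541), and 71 of 100 lay under the median of the others. Across the 1809 cells the score had a Pearson correlation of 0.221 with UMIs per cell, which share the library and the counting. Mitochondrial genes took over 5% of the UMIs in 11 of the 100 cells and in 15.6% of the others.

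**Figure D1:**
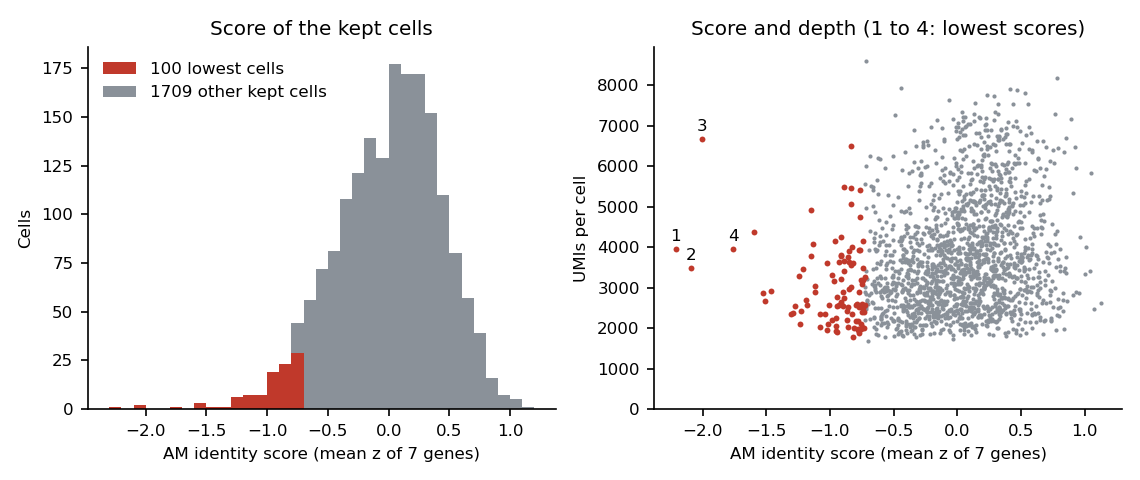
The left panel counts the 1809 kept cells by AM identity score in bins of equal width, with the 100 lowest cells in red and the 1709 others in grey. The right panel plots UMIs per cell against the score, 1 point per cell, with the cells of rank 1 to 4 numbered; those 4 score -1.76 or less and have 3489 to 6667 UMIs, within the range of the other cells.

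The values that chose the cells were as follows. All levels are UMIs per 10000 UMIs of the cell or of the summed cells. Chil3 ran from 7.58 to 211 in the 100 lowest cells (median 85.8) and from 15.1 to 680 in the others (median 124), so the ranges overlapped over most of their length and no cell was without Chil3. Ear2 ran from 0 to 42.2 (median 12.1) against 0 to 135 (median 30.1). Marco was at 0 in 85 of the 100 cells and in 49.4% of the others, Fabp5 in 62 and 23.6%, and Ltc4s in 53 and 10.8%. Mrc1 was at 0 in 31 of the 100 cells against 3.92%, and Abcg1 in 28 against 4.33%. At least 3 of the 7 genes were at 0 in 62 of the 100 cells and in 3.22% of the others, with 4 at 0 in 11 of the 100 cells and in none of the others. The low score was therefore built from several genes per cell, mostly those with few UMIs.

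Because a cell can score low through sampling of few UMIs, each UMI was also assigned with probability 0.5 to a choosing portion or to an unused portion, the 100 lowest cells were chosen on the former and the 7 genes were read on the latter. In the choosing portion, the summed level of the 7 genes in the chosen cells was 0.498 to 0.528 of that in the others over 5 such splits. In the unused portion it was 0.639 to 0.685. Marco (0.429 to 0.528) and Ear2 (0.478 to 0.567) were the lowest there, in an order that varied between splits. Chil3 was at 0.647 to 0.704 and Fabp5 at 0.611 to 0.809. Ltc4s spread from 0.613 to 0.888 and Abcg1 from 0.801 to 0.862, while Mrc1 ran from 0.835 to 1.03 and so reached the level of the other cells in at least 1 split. Between 48 and 56 of the 100 cells chosen in this way were among the 100 described here. In the unused UMIs the counting intervals of Chil3, Ear2 and Marco lay below 1 in each split. The interval reached 1 in 1 split each for Abcg1 (0.727 to 1.01), Ltc4s (0.716 to 1.09) and Fabp5 (0.627 to 1.03), and in all 5 for Mrc1. The deficit was smaller in the unused UMIs for each gene.

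**Figure D2:**
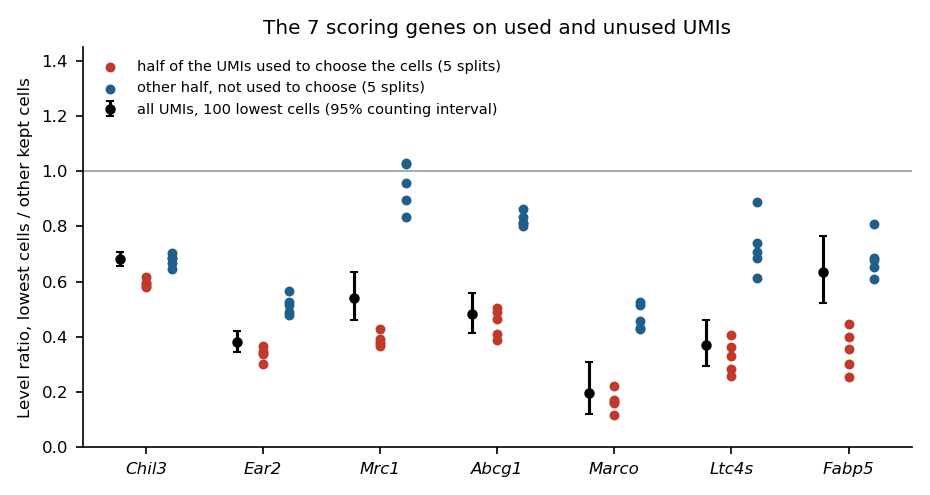
The y axis gives the level of each scoring gene in the 100 lowest cells divided by its level in the other kept cells, with a line at 1. Black points use all UMIs and carry 95% counting intervals, red points the UMIs that chose the cells and blue points the unused UMIs, for 5 splits; blue points lie above red ones for each gene, and those of Mrc1 reach 1.03.

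The label was checked against AM genes that the score did not use. Of 33 further AM genes (surface and secreted proteins, and regulators such as Pparg, Bhlhe41 and Spi1), 32 were in the data. Their summed level ran from 98.1 to 451 in the cells of rank 5 to 100 (median 251) and from 114 to 723 in the 1709 others (median 292), so both ranges overlapped over most of their length. In the 4 lowest cells it was 28.7 to 83.5, below every one of the 1709 others, and the cell of rank 5, at 98.1, was the only further cell below them. By these genes 95 of the 100 cells were within the range of the other AMs, and the label does not hold for the 4 lowest.

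The cell of lowest score held 3956 UMIs, of which 3 were of Chil3 against 54.3 at the mean level of the other cells. MHC class II genes, whose products present peptides to CD4+ T cells, took 10.1% of its UMIs. It held 211 UMIs of Cd74, the invariant chain, 66 of H2-Ab1, 65 of H2-Aa and 42 of H2-Eb1. Cst3, a protease inhibitor abundant in dendritic cells, had 199 UMIs against 3.56 at the mean of the others, and Cd83 had 8. Of 12 genes of the conventional dendritic cell list, 5 had UMIs, among them 1 of Clec9a and 2 of Wdfy4. The cell of rank 3 was of the same kind and deeper, with 6667 UMIs, of which MHC class II genes took 10.5%. It held 351 UMIs of Cd74, 140 of H2-Ab1 and 215 of Cst3, with 5 genes of the dendritic cell list (4 UMIs of Clec9a, 6 of Ccl22, 3 of Irf8, 4 of Tbc1d4 and 2 of Wdfy4). Both cells were also high in Crip1. Ifi205, an interferon-induced gene, had 28 UMIs in the cell of rank 3 and 3 UMIs in all 1709 others, although 57.6% of its 3′ stretches are shared with Ifi211.

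The cell of rank 2 also held MHC class II UMIs (97 of Cd74, 22 of H2-Aa and 15 of H2-Ab1), but with genes of B cells. Of the 6 genes of the B cell and plasma cell list in the data, 5 had UMIs: 7 of Ms4a1 (CD20), 3 of Cd79a (a subunit of the B cell receptor), 3 of Mzb1, 1 of Jchain and 1 of Cd22. In the 1709 others together, Ms4a1 had 2 UMIs and Cd79a 4. H2-DMb2 had 8 UMIs in this cell. Ribosomal protein genes took 33.1% of its UMIs, and 26.5% and 20.9% in the cells of rank 1 and 3, against 3.23% to 21.7% in the others (median 14.2%). The cell of rank 4 was led by Jchain, which joins the chains of secreted IgA and IgM, with 940 UMIs or 23.8% of its total of 3952. It also held 6 UMIs of Mzb1 and 5 of Cd79a, 57 of Cd74, and genes of protein export into the endoplasmic reticulum (10 UMIs of Spcs2, 6 of Sec11c and 7 of Pdia4). Immunoglobulin chain genes were not among the genes analysed here.

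None of these 4 cells held a UMI of Siglecf or Itgax, which encode the SiglecF and CD11c of the sort. For 1 gene in 1 cell that says little at this depth, since 0.561 to 2.1 UMIs of each would stand in such a cell at the mean level of the others. What the absence of both genes means over the 4 cells together was not tested. A UMI of at least 1 of these genes was found in 69 of the 100 cells and in 78.9% of the others. The 4 cells still held 3 to 15 UMIs of Chil3, 2 to 4 of Ear2 and 7 to 33 of Lyz2. Whether this is RNA of their own, free RNA of the suspension or RNA of a second cell in the droplet was not tested.

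Of the cells of rank 5 and 6, which were singled out after their values were seen, neither was led by MHC class II genes or Jchain. The cell of rank 5 held 19 genes of the S phase list with 40 UMIs and 14 genes of the G2/M list with 40 UMIs, beside 130 UMIs of Mt1, a metallothionein, and 66 of Hmox1, which degrades heme. At rank 6 the cell held 8 UMIs of Ifitm3, 12 of Ifi27l2a, 4 of Ms4a6c, 9 of Gngt2 and 16 of AW112010, all higher than at the mean of the others, together with 34 UMIs of Chil3 and 82 of Lyz2. Ifitm3, Ifi27l2a and Ms4a6c are high in blood monocytes as well as under interferon. Of the 20 monocyte and interstitial macrophage genes in the data, 2 had UMIs in this cell, Ms4a6c and Gngt2. The list as a whole had 13 UMIs against 3.81 at the mean of the others. Its level of 45.4 was above the 95th percentile of the others (27.8). Of 18 interferon-induced genes 5 had UMIs, with 19 UMIs against 0.833 at the mean of the others. Whether the cell is a monocyte was not tested. The summed level of its further AM genes was 140, within the range of the others (114 to 723).

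Across all genes, 4147 outside the score had at least 200 UMIs over the kept cells, the 100 lowest included. Of the 4147, 32 (0.772%) were at least 2-fold higher in the 100 lowest cells and 54 (1.3%) at least 2-fold lower, with a median ratio of 1.01. Among the 20 highest ratios, Jchain (60 UMIs in the others) and Ube2c (197) met the floor of 200 only through the 100 lowest cells. The 32 had counting intervals above a ratio of 1 in every case, which the floor of 200 UMIs and the 2-fold limit together fix in advance. Of the 54 lower genes, 29 had intervals below 1, and none had more than 12 UMIs in the 100 cells. The median gene was thus at the same level in both sets, and the genes past 2-fold included both genes with most of their UMIs in a few cells and genes spread over more cells. Without the 4 lowest cells, 30 genes (0.723%) were at least 2-fold higher, of which 19 were among the 32.

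The gene with the highest ratio was Jchain (335-fold, 258 to 442), of which 940 of 943 UMIs lay in the cell of rank 4; at 0.75 its ratio without the 4 lowest cells was under 1. H2-Eb1 (8.79-fold), H2-Ab1 (6.24-fold), H2-Aa (5.89-fold) and Cd74 (5.39-fold) were among the 6 highest, with Cxcl1 (6.73-fold) between the first and the second of them, and the 4 went to between 0.56 and 0.65 without those cells. Cst3 (2.33-fold) went to 0.86 in the same way. Cd83, a maturation marker of dendritic and B cells, went from 2.59-fold to 1.21-fold. The rest of the 20 highest were carried by cells beyond rank 4. They were genes of cell division (Ube2c, Cenpa, Top2a, Rrm2, Birc5, 2810417H13Rik and Tmpo), the chemokine Cxcl1 and the cytokine Il6, Ifi27l2a, Ms4a6c, the membrane protein gene Emp1 and the zinc finger gene Zfp639. Emp1 was at 2.53-fold (1.70 to 3.66) with UMIs in 20 of the 100 cells and 12.4% of the others, and no cell held more than 3 of its 32 UMIs.

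The 20 lowest ratios ran from 0.106 to 0.413 on 1 to 8 UMIs in the 100 cells. Intervals lay below 1 for 17 of the 20, but they do not allow for the choice of these genes as the lowest. They belonged to Lats1, Rnmt, Zdhhc21, Rpl7l1, Acp2, Ctns, Lsr, Adk, Manba, Zfp608, Capn7, Ddx50, Bfar, Nup88, Mgat4b, Chm, Naip5, Ece2, Mical2 and Morc3. Acp2, Ctns and Manba encode lysosomal proteins, and Naip5 is a sensor of flagellin.

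Among genes with fewer than 200 UMIs, the 10 highest ratios of those with at least 10 UMIs from at least 3 of the 100 cells belonged to Ifi205, Ifitm3, Mnda, Cenpf, Mef2c, Isg15, AA467197, Ccnb1, Ccnb2 and Kif11. Because this limit was set on the 100 cells, a ratio over 1 was fixed for every gene that met it. The genes are therefore named as a description alone. Of the 10, Cenpf (15 UMIs in 9 cells, 5.60-fold), Ccnb1 (11 in 6, 4.78-fold), Ccnb2 (28 in 14, 4.48-fold) and Kif11 (10 in 7, 4.17-fold) act in mitosis. Ifitm3, an antiviral membrane protein, had 18 UMIs in 3 cells (13.7-fold), with 8 in a single cell. Isg15, which is conjugated to proteins under interferon, had 13 of its 16 UMIs in the cell of rank 83. Mef2c, a factor of B cells among others, went from 5.57-fold to 1.08-fold without the 4 lowest cells.

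Genes of antigen presentation through MHC class II were higher in sum, and few cells carried them. The summed level of 9 genes of the pathway ran from 0 to 1051 in the 100 lowest cells (median 3.91) and from 0 to 522 in the others (median 5.33). The summed level was 4.19-fold that of the others (3.96 to 4.42), yet the 4 lowest cells held 85.7% of these UMIs. Without them it was 0.636 (0.553 to 0.727), below the other cells. Of the 6 genes of the pathway with enough UMIs, 4 were at least 2-fold higher in the 100 cells and 0 in the 96. Over all genes these shares were 0.772% and 0.723%. Levels above the 95th percentile of the other cells were found in 7 of the 100 cells (2.86% to 13.9%), which are the cells of rank 1, 2, 3, 4, 6, 20 and 59. In the cell of rank 20 there were 20 UMIs of Cd74 and 8 of H2-Ab1 together with 10 of Hmgb2, a chromatin protein of dividing cells. MHC class I and peptide loading genes were at 0.985 (0.938 to 1.03). Of 8 genes 0 were past 2-fold in either direction, near the 0.772% higher and 1.3% lower over all genes.

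**Figure D3:**
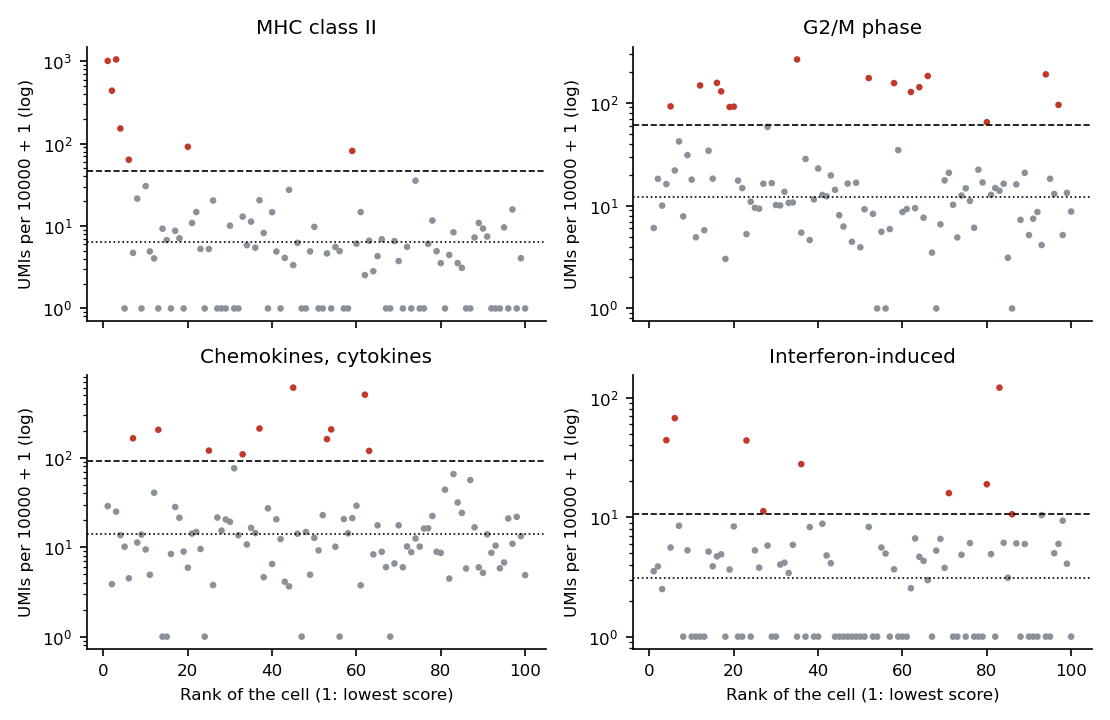
Each panel plots 1 gene list in the 100 lowest cells, with the rank of the cell on the x axis (1 is the lowest score) and the summed UMIs per 10000 plus 1 on a log y axis. The dashed line is the 95th percentile and the dotted line the median of the 1709 other cells, and cells above the dashed line are red: MHC class II is high at ranks 1 to 4, whereas the 15 cells high in G2/M genes spread from rank 5 to rank 97.

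Of the lists of MHC class II, G2/M, S phase, chemokine and interferon genes, G2/M genes were high in the most cells. The summed level of 54 G2/M genes, which act in chromosome condensation, spindle assembly and cytokinesis, ran from 0 to 263 (median 11.7) in the 100 lowest cells and from 0 to 245 (median 11.02) in the others, so the medians were close and the sets differed in how often high levels were reached. The summed level was 1.87-fold (1.76 to 1.99), 1.95-fold without the 4 lowest cells and 1.74-fold without the cell that held the most of these UMIs. Levels above the 95th percentile of the others were found in 15 of the 100 cells (8.65% to 23.5%). With each cell thinned to 1500 UMIs the count was again 15, against 5.03% of the others, and the ratio was 1.71 (1.55 to 1.88). Of the 15 G2/M genes with enough UMIs, 5 were at least 2-fold higher and 0 lower, against 0.772% and 1.3% of all genes. Ratios were over 1 for 14 of the 15, and the median of the 15 was 1.73, against 1.01 over all genes. Ube2c, which drives the exit from mitosis, was at 4.11-fold (2.82 to 5.83), Cenpa, the histone of centromeres, at 3.61-fold (2.48 to 5.14), Top2a at 2.76-fold (1.88 to 3.93) and Birc5 (survivin) at 2.55-fold (1.78 to 3.57). Ube2c had 12 of its 38 UMIs in the cell of rank 52, while Cenpa was found in 20 of the 100 cells and 7.43% of the others.

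S phase genes differed less. Their summed level was 1.24-fold (1.12 to 1.38), and 6 of the 100 cells lay above the 95th percentile of the others (2.23% to 12.6%), near the 5% that the threshold fixes. Of 10 genes with enough UMIs, 2 were at least 2-fold higher, against 0.772% of all genes. They were Rrm2 (2.67-fold, 1.72 to 4.00), a subunit of ribonucleotide reductase, and 2810417H13Rik (2.23-fold, 1.69 to 2.88), a clamp-binding factor of replication. The other 8 included Pcna at 0.96 (0.71 to 1.28), Mcm3 at 0.70 (0.28 to 1.47) and Dut at 0.76 (0.41 to 1.29). Over all 10 genes, 4 ratios were above 1 and 6 below. In the 50 lowest cells the S phase ratio was 0.901 (0.760 to 1.06), so its direction turned with the number of cells taken. S or G2/M genes were above their 95th percentile in 15 of the 100 cells and in 6.79% of the others.

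The 7 genes were also read in kept cells chosen by G2/M genes in place of the score. The 101 cells above the G2/M limit included the 15 of the 100 lowest cells already counted, whose low scoring genes the choice had fixed, so the values here leave out all of the 100 lowest cells, an alternative added after seeing the data. In the remaining 86 cells, Ear2 was at 0.632 of the level in the 1623 cells below the limit (0.590 to 0.675), Abcg1 at 0.707 (0.632 to 0.788), Ltc4s at 0.736 (0.640 to 0.843) and Mrc1 at 0.752 (0.667 to 0.845). Fabp5 was at 0.833 (0.718 to 0.962) and Chil3 at 0.852 (0.827 to 0.877). The interval of Marco, at 0.987 (0.819 to 1.18), included 1. The further AM genes (0.772) and the lipid genes (0.772) were lower as well. All 101 cells had a median of 4293 UMIs, against 3456 in the cells below the limit.

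The 86 cells high in MHC class II genes outside the 100 lowest showed another pattern. Chil3 was at 1.28 (1.246 to 1.31) of the 1623 cells below the limit, Fabp5 at 1.26 (1.11 to 1.44) and Ear2 at 1.14 (1.08 to 1.20), whereas Marco was at 0.566 (0.436 to 0.724) and Abcg1 at 0.787 (0.702 to 0.880). The median score of the cells above the MHC class II limit, with the 4 lowest included, was 0.127, above the 0.040 of the cells below it.

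**Figure D4:**
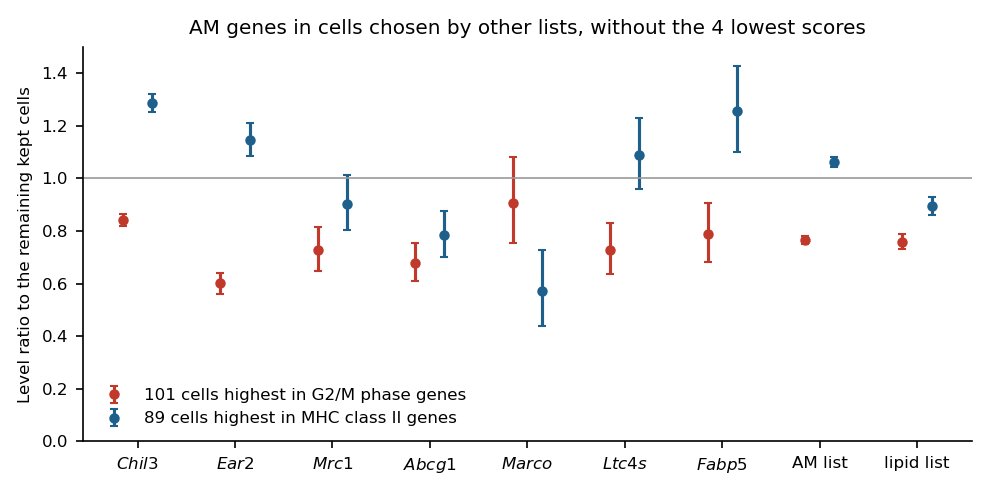
The y axis gives the level of each scoring gene, and of the further AM and lipid lists, in cells chosen by another list divided by the level in the remaining kept cells, with 95% counting intervals and a line at 1. The 101 cells highest in G2/M genes (red), which include 15 of the 100 lowest cells, lie below 1 for each gene, with the interval of Marco reaching 1.08, while the 89 cells highest in MHC class II genes (blue), without the 4 lowest, lie above 1 for Chil3, Ear2 and Fabp5 and below 1 for Abcg1 and Marco. The choice fixed the low scoring genes of those 15 cells, so the red points are partly set by it. The values in the text leave out all of the 100 lowest cells, with Marco at 0.987 (0.819 to 1.18) for G2/M.

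Chemokine and cytokine genes were high in some of the 100 cells. Their summed level ran from 0 to 608 in the 100 lowest cells (median 12.5) and from 0 to 384 in the others (median 13.1), with a ratio of 1.67 (1.58 to 1.76). The cell of rank 62 held 24.8% of these UMIs, with 202 of Cxcl2, 63 of Cxcl1, 15 of Tnf and 14 of Il6, and it was high in G2/M genes too. Without that cell the ratio was 1.28 (1.20 to 1.37). Cxcl1, which draws neutrophils, was at 6.73-fold in the 100 cells and at 3.72-fold without it, with UMIs in 11 of 100 cells and 10.4% of the others. Il6 went from 2.31-fold to 1.14-fold in the same way. Cxcl2 was at 1.80-fold (1.66 to 1.95), Tnf at 1.79-fold (1.38 to 2.30) and Il1b at 1.60-fold (1.28 to 1.97). Without the cell of rank 45, which held the most UMIs of both, Tnf was at 1.12-fold and Il1b at 1.23-fold. Without the cell of rank 62, Cxcl2 was at 1.28-fold. Il1rn, the antagonist of IL-1, was at 0.73 (0.52 to 1.00). In all, 10 of the 100 cells lay above the 95th percentile of the others (4.90% to 17.6%).

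Interferon-induced genes were few in UMIs. The summed level of 18 genes was 2.16-fold (1.85 to 2.51), with 9 of the 100 cells above the 95th percentile (4.20% to 16.4%). Of these UMIs, the cell of rank 83 held 33.7% and brought 13 of Isg15, 7 of Ifi47 and 6 of Rsad2 together with 16 of Ms4a6c and 114 of Chil3. Without it the ratio was 1.46 (1.21 to 1.75), and with cells chosen and levels read on separate UMIs it was 1.32 (0.994 to 1.72). Ifi27l2a was at 3.03-fold (2.24 to 4.04), and at 2.33-fold without the 4 lowest cells. In the 86 cells high in interferon-induced genes outside the 100 lowest, the 7 scoring genes in sum were at 1.08 (1.05 to 1.11) of the 1623 below the limit. The further AM genes were at 0.951 (0.932 to 0.972).

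The AM genes that the score left out were lower in sum. How far they fell cannot be set against the scoring genes, whose values chose the cells. The summed level of the further AM genes was 0.815 (0.796 to 0.834) of that in the others and 0.856 without the 4 lowest cells. Of 30 with enough UMIs, 26 had ratios under 1, with a median of 0.861. A count of 0 were past 2-fold in either direction, near the 0.772% higher and 1.3% lower over all genes. Ear1, a ribonuclease of the family of Ear2, was the lowest at 0.51 (0.44 to 0.57), with UMIs in 80 of 100 cells and 93.9% of the others. Serpinb1a was at 0.64 (0.47 to 0.85), Krt19 at 0.64 (0.47 to 0.86) and Cd9, a tetraspanin, at 0.70 (0.66 to 0.74). The chemokine Ccl6 was at 0.81 (0.78 to 0.85) and Car4, a carbonic anhydrase, at 0.81 (0.68 to 0.96). In the other direction, Bhlhe41, a transcriptional repressor, was at 1.67-fold (1.22 to 2.24) and at 1.27-fold without the cell of rank 68. Wfdc17 was at 1.24-fold (1.04 to 1.46) and Cebpb at 1.13-fold (1.06 to 1.20). Pparg, the nuclear receptor of AM identity, was at 0.87 (0.59 to 1.24) on 32 UMIs in 25 of 100 cells, and Siglecf at 0.89 (0.64 to 1.21), so no difference was detectable at this depth. Hdac3, the floxed gene, had 3 UMIs in the 100 cells (0.098 per 10000) against 0.167 in the others, a ratio of 0.586 with an interval of 0.119 to 1.76.

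Lipid handling genes behaved like the AM genes. Their summed level ran from 5.73 to 134 (median 65.2) in the 100 lowest cells and from 20.3 to 195 (median 81.1) in the others, a ratio of 0.788 (0.753 to 0.823). Of 19 genes, 17 had ratios under 1, with a median of 0.823, and 0 were past 2-fold, near the 0.772% higher and 1.3% lower over all genes. Fabp1, a fatty acid carrier, was at 0.54 (0.48 to 0.61), Nceh1, which frees cholesterol from its esters, at 0.72 (0.57 to 0.89) and Atp6v0d2, a subunit of the lysosomal proton pump, at 0.73 (0.62 to 0.86). Lpl, the lipoprotein lipase, was at 0.84 (0.77 to 0.92), Plin2, the coat of lipid droplets, at 0.82 (0.72 to 0.93) and Fabp4 at 0.94 (0.77 to 1.14). Genes that macrophages of most tissues share were closer to the others, at 0.940 (0.928 to 0.953), with a median of 0.899 over 23 genes, of which Cst3 was past 2-fold. Ctss, a lysosomal protease, at 0.66 (0.62 to 0.71), and Lyz2, lysozyme, at 0.71 (0.68 to 0.73) were the lowest of them, while the iron store gene Ftl1 was at 1.11-fold (1.08 to 1.14) and Cd68 at 1.15-fold (0.92 to 1.42).

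**Figure D5:**
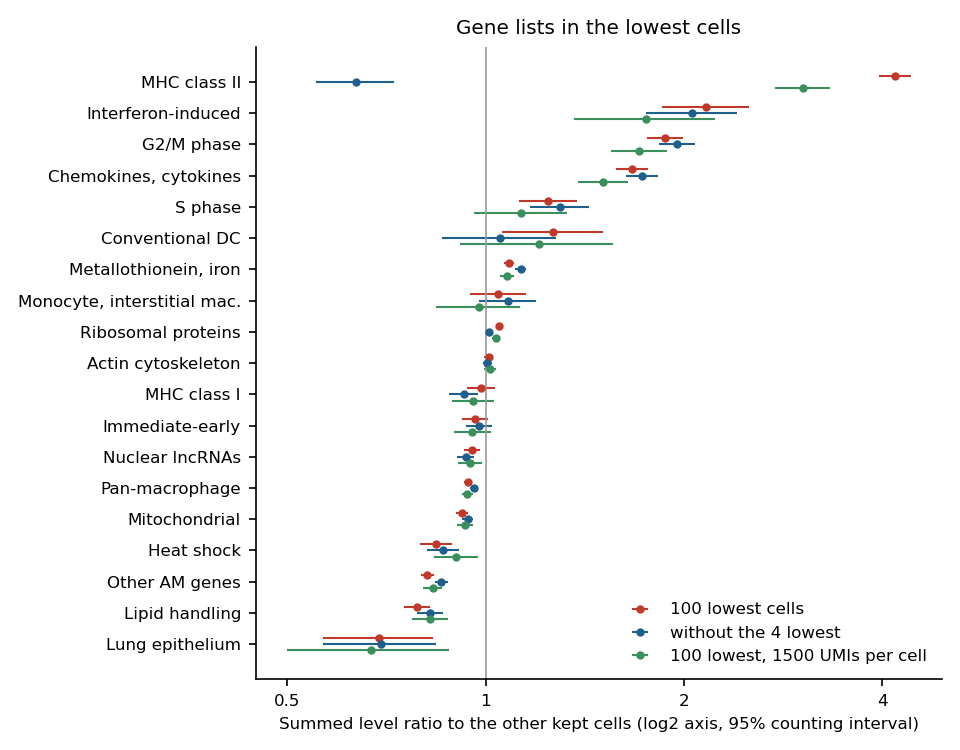
Points give the summed level of each gene list in the lowest cells divided by the level in the 1709 other kept cells, on a log2 axis with 95% counting intervals. Red is all 100 lowest cells, blue is without the 4 lowest and green is all 100 with each cell thinned to 1500 UMIs: MHC class II moves from 4.19 to 0.636 without the 4 lowest, G2/M stays at 1.71 or more, and the AM and lipid lists stay below 1.

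Beyond the 4 lowest cells, few of the genes of other lineages that were in the data were found. Lists of dendritic, T, NK, B, plasma, mast and endothelial cells, granulocytes and stroma gave at least 3 UMIs of 1 list in 24 of the 100 cells (16.0% to 33.6%) and in 29.2% of the others. Among the genes of these lists, Cd24a had UMIs in 34 of the 100 cells and 35.8% of the others, and Cd2 in 33 and 48.5%. The B cell and plasma cell list reached 3 UMIs in 2 of the 100 cells, those of rank 2 and 4, and in 0.0585% of the others. The neutrophil list did so in 4 cells against 2.17%, the T cell list in 4 against 10.6% and the NK cell list in 1 against 0.410%. Monocyte and interstitial macrophage genes were at 1.05 (0.946 to 1.15), and within them Ms4a6c was at 3.03-fold (2.17 to 4.15), and at 1.99-fold without the cell of rank 83. Genes of lung epithelium were lower, at 0.689 (0.566 to 0.831), with 0 of the 100 cells above the 95th percentile of the others, mainly through Epcam (0.70, 0.53 to 0.89) and Lyz1 (0.67, 0.43 to 0.99). The 11 genes of the mast cell and basophil list were not among the genes analysed here, and other lists were there only in part. Present were 5 of 20 T cell genes, 3 of 12 NK cell genes and 6 of 22 B cell and plasma cell genes. Of neutrophil genes 7 of 16 were present, of eosinophil genes 3 of 8 and of stroma genes 3 of 16. Few UMIs on such a list therefore do not show that the cell type was absent.

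Most of the 100 cells were high in none of these 5 lists. MHC class II, G2/M, S phase, chemokine and interferon genes were all at or below their 95th percentiles in 64 of the 100 cells and in 80.0% of the others. These 64 cells had a median of 2602.5 UMIs against 3460 in the 1367 others of the same kind. Their further AM genes were at 0.873 (0.848 to 0.899) and their lipid genes at 0.860 (0.814 to 0.908). Metallothionein and iron genes were at 1.15-fold (1.12 to 1.17) and actin cytoskeleton genes at 1.05-fold (1.03 to 1.07). Depth moved with membership in these cells, and the share of them that scored low through sampling of UMIs cannot be told apart from the share that held less of the RNA. The 5 lists were not the only ones with high cells. Over all 100 cells, metallothionein and iron genes were above the 95th percentile of the others in 12, with a ratio of 1.09 (1.07 to 1.10). Ribosomal protein genes, a list added after the data were seen, were above it in 15 (11 with thinned cells), with a ratio of 1.05 (1.04 to 1.06).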

How the data were processed

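AMs of 1 WT library were analysed. The authors aligned reads to mm10 and counted UMIs with Cell Ranger, describe filters of 300 to 2500 genes per cell and at most 5% mitochondrial UMIs, and deposited natural log values, ln(1 + UMIs per 10000 UMIs of the cell), made with Seurat. The scaled scores that the authors deposited (log values after regression on depth and mitochondrial share) served in an alternative only. Of the 2055 cells deposited, 1671 meet those filters, and 84 ribosomal protein genes are listed among 11918 genes. UMI counts were recovered from the log values (100% within 0.01 of a whole number). No count model was used, since cells are not replicates. Levels are summed UMIs per 10000, with exact Poisson intervals, exact binomial intervals for shares and exact conditional binomial intervals for ratios. PCR duplicates are removed by UMIs.

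Genes had to have at least 200 UMIs over the 1809 cells, and 2-fold was the limit for naming a change. The text names the scoring genes, the 20 highest and 20 lowest ratios, the 10 highest among rarer genes, genes with most of their UMIs in 1 cell (Jchain and Ifi205), genes of the lists, Hdac3 and Pparg. The cells, lists and rule were chosen with earlier results of these data known. Depth was checked by thinning to 1500 UMIs and by random division of the UMIs (probability 0.5). No doublet caller was run; the limit of 2500 genes was set by the authors against doublets. Genes were placed with GENCODE M21. Steps were tested on simulated data. Python 3.11.15, numpy 2.4.6, scipy 1.17.1 and pandas 2.3.3 were used.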

Additional observations from a re-analysis of the deposited data

Results flagged for a closer look

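Of the 246 cells left out for fewer than 1000 genes, 50 would have scored at or below the limit, and 4 scored lower than every kept cell, between -2.88 and -2.42. They held 2 to 4 UMIs of Chil3 each and 0 UMIs of Mrc1, Abcg1, Marco, Ltc4s and Fabp5. The lowest had 1404 UMIs with 12 of Apoe, 11 of Ifitm3 and 6 of Plac8, and the next 1507 UMIs with 9 of Ccr7, 5 of Tnfrsf4 and 5 of Tbc1d4. The other two had 1951 UMIs with 5 of Ramp3 and 5 of Ctla2a, and 2084 UMIs with 23 of S100a8, 11 of Ifitm3 and 8 of Plac8. These cells were outside every comparison above.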

How the results depend on the processing

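No paired analysis was possible because there is 1 library. Without the 4 lowest cells (chosen after seeing the data) the MHC class II ratio was 0.636, the AM ratio 0.856 and the lipid ratio 0.824, and without the 10 lowest 0.578, 0.871 and 0.825. Leaving out cells with at least 3 UMIs of another cell type gave 0.558 for MHC class II, 1.53 for chemokines, 0.882 for AM and 0.872 for lipid genes, with 6 genes at least 2-fold higher. With no gene minimum the ratios were 5.27 (MHC class II), 1.56 (G2/M), 0.974 (S phase) and 1.52 (chemokines), with 106 genes lower. With at least 1200 genes they were 3.11, 1.68 for G2/M, 0.872 for AM and 1.00 for shared macrophage genes, with 35 lower. The 50 lowest cells gave 8.11, 1.53 for G2/M, 0.901 for S phase, 0.767 for AM and 0.753 for lipid genes, with 59 genes higher and 236 lower. The 200 lowest gave 2.53, 1.66 for G2/M, 1.37 for chemokines and 0.878 for AM, with 18 higher and 12 lower. Scores on cells thinned to 1500 UMIs gave 3.34, 1.42 for S phase, 1.18 for chemokines, 0.863 for AM and 0.826 for lipid genes, with 72 higher and 234 lower. The cells themselves changed with the setting. Of the 100 described here, 44 were chosen again on thinned cells, 58 with no gene minimum, 74 with at least 1200 genes and 79 on scaled values. By the summed UMIs of the 7 genes per 10000 in place of the score, 36 were, with the 4 lowest among them. Scaled values gave 2.30 for G2/M, 1.61 for S phase, 0.862 for AM and 1.00 for shared macrophage genes. Choosing and reading on separate UMIs gave 0.854 for AM, with 63 higher and 206 lower, and a ratio of the 7 genes as low as 0.639. With at most 5% mitochondrial UMIs the AM ratio was 0.865, with 20 higher and 34 lower. Means over cells gave 3.01 for MHC class II, 1.47 for chemokines and 0.837 for AM. With a minimum of 100 UMIs per gene 95 were higher and 230 lower, with 500 UMIs 8 and 2, with 1 UMI 1206 and 571, at 1.5-fold 212 and 244, and at 3-fold 10 and 9. Gene counts in this paragraph stand without the number of genes compared in each setting. In the main setting 32 were higher and 54 lower of 4147. At 2 UMIs of another cell type 52% of the 100 cells passed and at 5 UMIs 8%. G2/M stayed above 1 and the AM and lipid lists below 1 under each setting that changed the cells or their levels; the gene minimums, fold limits and UMI limits bear on counts alone. The S phase direction and the MHC class II direction did not hold. The causes were not tested. Depth limits rare genes: of 54 lower genes none had over 12 UMIs.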
